A study of Capra hircus with 6 samples.

Results

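The genes described here are the machinery that D cyclins act through in early G1: the cyclins CCND1, CCND2 and CCND3, their kinase partners CDK4 and CDK6, the CIP/KIP inhibitors CDKN1A, CDKN1B and CDKN1C, and the INK4 inhibitors CDKN2B and CDKN2C. They were given as a list of 10 symbols, and all 10 were found among the 16285 gene identifiers of the deposited tables. Each had at least 1 FPKM in every library, so all 10 passed the filter on low values and were tested. The samples were 6 RNA-seq libraries of goat (Capra hircus) adipose mesenchymal stem cells, the culture-grown stromal cells of fat that can be induced to become adipocytes. In 3 libraries the labels gave the genotype as overexpressing YAP, in the other 3, the controls, as WT, and in all 6 they gave adipogenic differentiation as the treatment. The series' design text asks about YAP in adipogenesis but speaks of a line overexpressing TAZ, whereas the sample labels name YAP alone. The sample labels give no vector, promoter, clonality, time in culture or animal of origin, and do not say whether the controls carried an empty vector.

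D cyclins are made in response to mitogens and bind CDK4 or CDK6. The active kinase phosphorylates the retinoblastoma protein, which frees E2F factors to switch on genes of DNA synthesis. INK4 proteins bind CDK4 and CDK6 directly and keep the cyclin away, while CIP/KIP proteins hold assembled cyclin-kinase complexes, above all those of CDK2. Fat cell precursors leave the cell cycle as they mature, and in mouse cells cyclin D1 is known to repress, and cyclin D3 to assist, the adipogenic receptor PPARG.

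The transcript level counted under YAP1, the gene named in the labels, was not raised. YAP1 averaged 27.4 ± 1.57 FPKM in the libraries labelled YAP and 27.2 ± 1.54 FPKM in controls (SD, n = 3 each; limma adjusted p = 0.95). WWTR1, which encodes TAZ, averaged 21.4 ± 1.98 FPKM in the libraries labelled YAP and 32.0 ± 3.38 FPKM in controls (limma adjusted p = 0.0013). Directions below are therefore those of the label, since the level counted under YAP1 showed no rise. Whether reads from an introduced YAP sequence would be counted under YAP1 was not tested. The libraries held 32593380 to 37131015 counted fragments when labelled YAP and 33871397 to 34967990 when control. FPKM, the fragment count adjusted for gene length and for sequencing depth, had been computed library by library, and the values of the groups came from separate tables. The labels do not say that replicates were separate cultures or animals, so p-values here speak for the variation among these libraries alone, and that variation may be technical. All 8 stromal markers examined were well above the filter, and the libraries labelled YAP had more of 4 and less of 2 at the threshold. Their sum, carried mostly by DCN and LUM, was 4423 to 4567 FPKM in the libraries labelled YAP and 2701 to 3190 FPKM in controls, while the 2 lower markers were ENG, at 80.8 FPKM in the libraries labelled YAP and 150.01 FPKM in controls, and NT5E, at 126.8 FPKM in the libraries labelled YAP and 170.3 FPKM in controls. Adipocyte markers were near the floor for PPARG (2 to 4 reads per library), LPL (0 to 4 reads) and LEP (0 to 1 read). ADIPOQ (2 to 17 reads) and PLIN1 (12 to 27 reads) were low too, and no identifier matched FABP4. PLIN1 averaged 0.199 FPKM in the libraries labelled YAP and 0.130 FPKM in controls. For ADIPOQ the means were 0.108 FPKM in the libraries labelled YAP and 0.119 FPKM in controls. The marker sum was 9.14 to 11.03 FPKM in the libraries labelled YAP and 17.2 to 19.6 FPKM in controls. Most of it was CIDEC, at 9.56 FPKM in the libraries labelled YAP and 18.3 FPKM in controls. Of 7 leukocyte markers, no library held more than 3 reads of PTPRC, CD74 or TYROBP or any of AIF1, and the summed level was 30.1 to 32.0 FPKM in the libraries labelled YAP and 22.1 to 25.3 FPKM in controls. That sum came from CD14, higher at 18.6 FPKM in the libraries labelled YAP and 9.58 FPKM in controls, CD68, lower at 2.03 FPKM in the libraries labelled YAP and 4.53 FPKM in controls, and LAPTM5, not past the threshold at 10.2 FPKM in the libraries labelled YAP and 9.47 FPKM in controls. The highest sum of the endothelial markers was 0.293 FPKM in the libraries labelled YAP and 0.533 FPKM in controls, and that of the epithelial markers was 0.173 FPKM in the libraries labelled YAP and 0.474 FPKM in controls. Among skeletal muscle markers ACTC1 was at 15.6 FPKM in the libraries labelled YAP and 2.76 FPKM in controls on average, with MYOG at 0 reads throughout. The part of these marker differences in the values below was not tested.

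The D cyclins moved apart. CCND1 fell, CCND3 rose and CCND2 did not pass the test. CCND1 (cyclin D1), the member that mitogens and Wnt signals induce most directly and a gene often listed among YAP targets, had 32.1, 31.8 and 33.2 FPKM in the libraries labelled YAP, against 99.1, 73.9 and 77.2 FPKM in controls. The lowest control was more than 2-fold above the highest library labelled YAP, so the groups lay far apart. The mean fell to 32.3 ± 0.74 FPKM in the libraries labelled YAP, against 83.4 ± 13.7 FPKM in controls (SD, n = 3 each), a 2.58-fold lower level. On the log2(FPKM + 1) scale, used for all changes here, the change was -1.33 (SE 0.10, 95% confidence interval -1.56 to -1.10, limma adjusted p = 2.9e-06). Of the 10761 genes tested, CCND1 had the 36th most negative change. These were bulk samples, in which fewer cells of a type and less RNA per cell cannot be told apart.

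CCND3 (cyclin D3) had 89.3, 89.2 and 89.2 FPKM in the libraries labelled YAP, against 55.1, 46.4 and 46.6 FPKM in controls. Again no values overlapped, and the 3 libraries labelled YAP were almost identical. The mean was 89.3 ± 0.058 FPKM in the libraries labelled YAP and 49.4 ± 4.96 FPKM in controls, a 1.81-fold higher level (log2 change 0.85, SE 0.08, 95% confidence interval 0.66 to 1.03, limma adjusted p = 1.9e-05). Behind these values stood 6946 to 7910 reads per library labelled YAP and 3751 to 4599 per control.

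CCND2 (cyclin D2), the third family member, had 19.8, 19.7 and 19.1 FPKM in the libraries labelled YAP, against 17.9, 20.5 and 19.3 FPKM in controls. The ranges overlapped. Its log2 change of 0.02 (95% confidence interval -0.15 to 0.20, limma adjusted p = 0.83) bounded any difference to a small one, and its sign turned to -0.02 when control replicate 1 was left out. The sources used here do not say how reads that fit more than 1 of these related cyclins were handled.

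**Figure D1:**
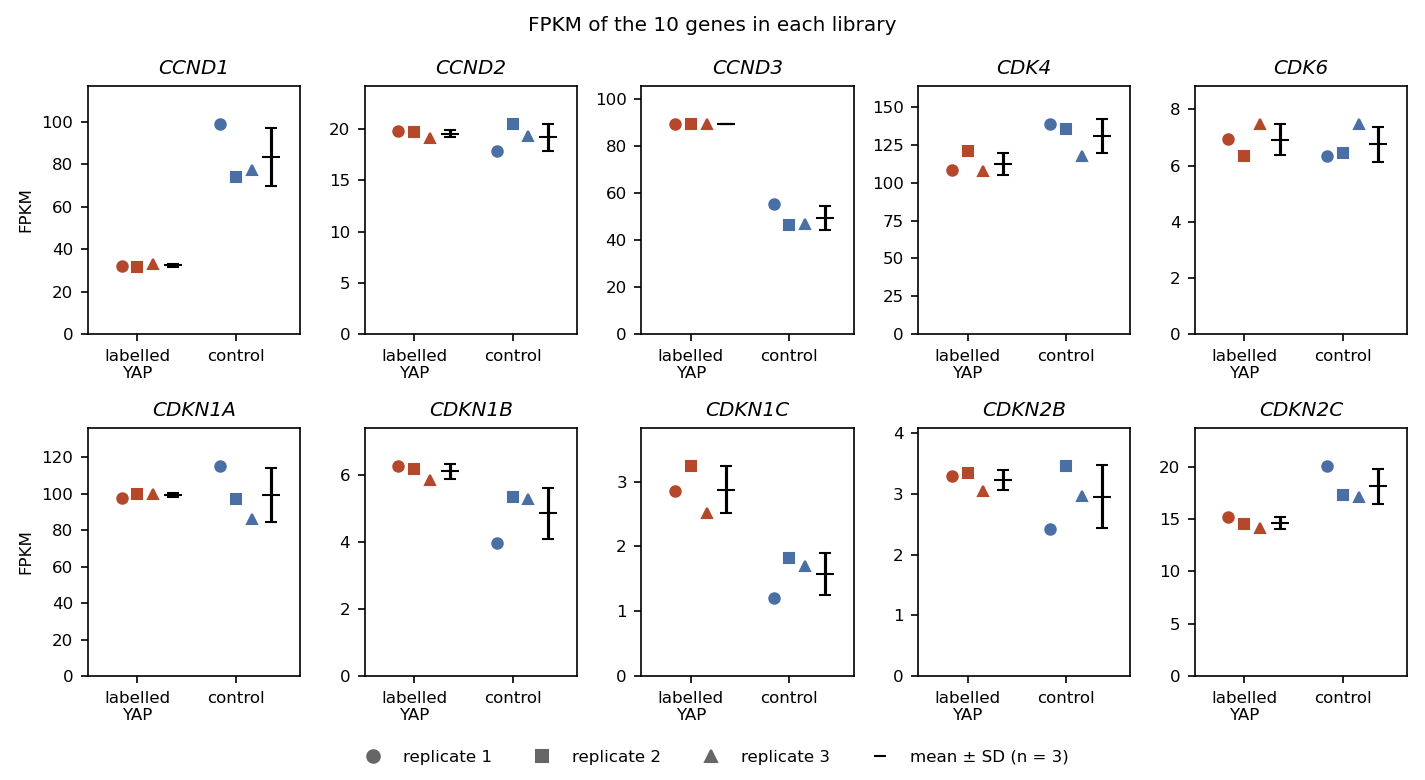
FPKM (vertical axes, each from 0) of the 10 genes in the libraries labelled YAP (red) and the controls (blue); symbols mark the replicate and bars the mean ± SD of 3 libraries. CCND1 and CCND3 separate the groups widely and in opposite directions, while CCND2, CDK6 and CDKN1A overlap.

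The summed level of the D cyclins overlapped between the groups, while its make-up did not. The sum was 141.2, 140.7 and 141.5 FPKM in the libraries labelled YAP, against 172, 140.8 and 143.1 FPKM in controls. Control replicate 1 stood above the other 5 libraries. CCND1 supplied 22.9 ± 0.46% of the sum in the libraries labelled YAP and 54.7 ± 2.62% in controls (SD, n = 3 each). CCND3 supplied 63.3 ± 0.20% in the libraries labelled YAP and 32.5 ± 0.46% in controls, and CCND2 supplied 13.8 ± 0.28% in the libraries labelled YAP and 12.8 ± 2.16% in controls. The ratio of CCND3 to CCND1 within a library, which no scaling between libraries can alter, was 2.79, 2.81 and 2.69 in the libraries labelled YAP, against 0.556, 0.627 and 0.604 in controls. CCND3 was thus the most abundant D cyclin transcript in every library labelled YAP, and CCND1 in every control. These shares were chosen with the changes of the members known and carry no test.

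**Figure D2:**
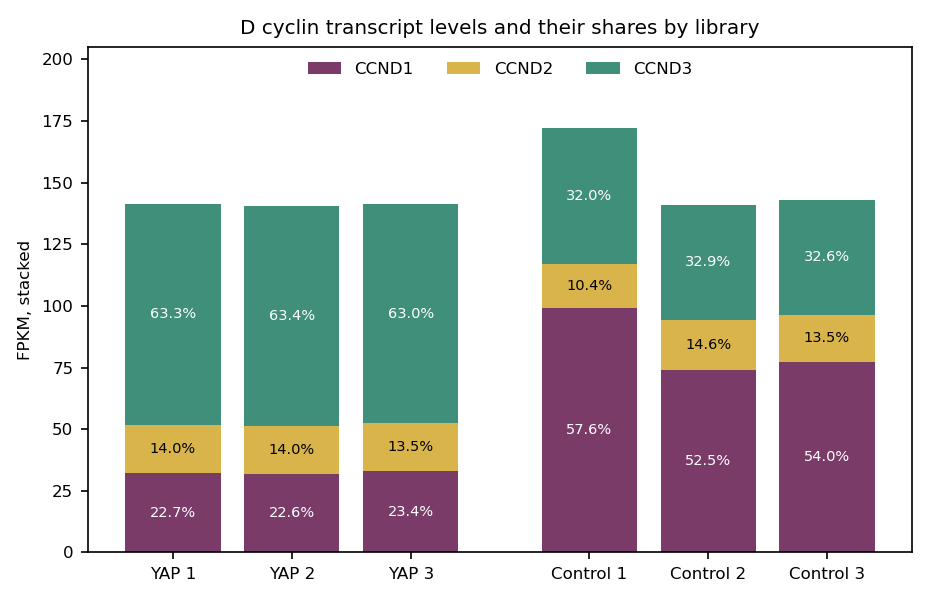
Stacked FPKM of CCND1, CCND2 and CCND3 (vertical axis, from 0) in each library, with each gene's percentage of the library's sum printed on its segment. The columns of the libraries labelled YAP and of control replicates 2 and 3 reach a like height, and the CCND1 share is near 23% in the first and at 52.5% or more in controls.

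The kinase partners did not pass the test. CDK4 had 108.3, 120.8 and 108.0 FPKM in the libraries labelled YAP, against 139.1, 135.5 and 118.1 FPKM in controls. The ranges overlapped through the library labelled YAP replicate 2 and control replicate 3. The means were 112.4 ± 7.27 FPKM in the libraries labelled YAP and 130.9 ± 11.2 FPKM in controls (SD, n = 3 each; log2 change -0.22, SE 0.09, limma adjusted p = 0.073). The adjusted p came to 0.043 without YAP replicate 2 and to 0.025 without control replicate 3. With median-of-ratios scaling, which sets the libraries level on the typical gene, the change was -0.13 (adjusted p = 0.30).

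CDK6, the second kinase that D cyclins use, had 6.95, 6.34 and 7.47 FPKM in the libraries labelled YAP, against 6.33, 6.44 and 7.49 FPKM in controls. The groups covered the same range. The log2 change was 0.03 (95% confidence interval -0.18 to 0.24, limma adjusted p = 0.82) and changed sign to -0.02 without YAP replicate 3 and to -0.01 without control replicate 1. CDK4 made up 94.2 ± 0.76% of the summed level of CDK4 and CDK6 in the libraries labelled YAP and 95.05 ± 0.88% in controls. The sum of the D cyclins over that of the kinases was 1.19 ± 0.068 in the libraries labelled YAP and 1.10 ± 0.10 in controls, with overlapping ranges.

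Of the CIP/KIP inhibitors, the least abundant rose and the other two did not pass the test. CDKN1C, an imprinted gene in mouse and human whose product restrains growth, had 2.86, 3.25 and 2.52 FPKM in the libraries labelled YAP, against 1.21, 1.83 and 1.70 FPKM in controls. Every library labelled YAP exceeded every control. The mean was 2.88 ± 0.36 FPKM in the libraries labelled YAP and 1.58 ± 0.33 FPKM in controls (SD, n = 3 each), 1.82-fold higher, and the log2 change was 0.59 (SE 0.12, 95% confidence interval 0.34 to 0.85, limma adjusted p = 0.0025). The pseudocount of 1 shrinks changes at so low a level: limma-voom on reads recovered from the FPKM steps gave 0.97 (adjusted p = 0.0028). The values rested on 162 to 183 reads in the libraries labelled YAP and 73 to 107 reads in controls.

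CDKN1B, which encodes the inhibitor of quiescent cells that mitogens clear through the SKP2 ligase, had 6.27, 6.18 and 5.86 FPKM in the libraries labelled YAP, against 3.97, 5.33 and 5.27 FPKM in controls. The groups did not overlap, though the gap from the lowest library labelled YAP to the highest control was narrow. The means were 6.10 ± 0.22 FPKM in the libraries labelled YAP and 4.86 ± 0.77 FPKM in controls (SD, n = 3 each; log2 change 0.29, SE 0.11, limma adjusted p = 0.057). It passed with median-of-ratios scaling (log2 change 0.36, adjusted p = 0.028) and with limma-voom (0.44, adjusted p = 0.025). Without control replicate 1, which was low for this gene, the change was 0.17 (adjusted p = 0.16).

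CDKN1A, an inhibitor that cells induce on DNA damage and other stress, was the most abundant inhibitor in every library. It had 97.9, 99.9 and 99.98 FPKM in the libraries labelled YAP, against 115.4, 97.2 and 86.0 FPKM in controls. The controls lay on either side of the libraries labelled YAP. The log2 change was 0.01 (95% confidence interval -0.21 to 0.23, limma adjusted p = 0.96), and its sign turned without control replicate 2 or 3. CDKN1A made up 91.7 ± 0.49% of the summed CIP/KIP level in the libraries labelled YAP and 93.8 ± 1.70% in controls, while CDKN1C made up 2.66 ± 0.32% in the libraries labelled YAP and 1.53 ± 0.46% in controls. The summed CIP/KIP level over the summed D cyclin level was 0.767 ± 0.0094 in the libraries labelled YAP and 0.697 ± 0.046 in controls.

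Among INK4 inhibitors, CDKN2C was lower and CDKN2B did not pass. CDKN2C, which is induced as mouse preadipocytes mature, had 15.2, 14.5 and 14.1 FPKM in the libraries labelled YAP, against 20.1, 17.3 and 17.1 FPKM in controls. No values overlapped. The means were 14.6 ± 0.56 FPKM in the libraries labelled YAP and 18.1 ± 1.68 FPKM in controls (SD, n = 3 each; log2 change -0.29, SE 0.09, limma adjusted p = 0.023). This call did not survive median-of-ratios scaling (-0.21, adjusted p = 0.090), limma-voom (-0.21, adjusted p = 0.12), or the loss of control replicate 1 (-0.22, adjusted p = 0.064) or of any 1 library labelled YAP (adjusted p = 0.051 to 0.076).

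CDKN2B, a gene that TGF-beta induces in epithelial cells, had 3.29, 3.35 and 3.04 FPKM in the libraries labelled YAP, against 2.43, 3.46 and 2.97 FPKM in controls. The libraries labelled YAP fell within the spread of the controls. The log2 change was 0.10 (95% confidence interval -0.13 to 0.34, limma adjusted p = 0.47). CDKN2D, an INK4 gene outside the 10, rose to 3.81 ± 0.47 FPKM in the libraries labelled YAP, against 2.10 ± 0.32 FPKM in controls (SD, n = 3 each; log2 change 0.63, SE 0.11, limma adjusted p = 0.0011). No gene identifier matched CDKN2A, so it was not analysed here.

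In sum over the list, 2 of the 10 genes were higher and 2 lower, and 6 did not pass. Across all 10761 tested genes 12.9% were called higher and 23.0% lower, 35.9% in either direction, so the 40% called here was near the background, and the count is no result about these genes. Groups did not overlap in 5 of the 10, with 3 higher and 2 lower, where 48.3% of all tested genes did not overlap, 16.7% higher and 31.6% lower. The median log2 change was 0.03 over the 10 genes and -0.10 over all tested genes. With median-of-ratios scaling 3 of the 10 were higher and 1 lower, and over all genes 1702 were higher and 1507 lower, where the FPKM as deposited gave 1392 higher and 2476 lower. The order of mean levels in the libraries labelled YAP was CDK4, CDKN1A, CCND3, CCND1, CCND2, CDKN2C, CDK6, CDKN1B, CDKN2B and CDKN1C, and of these neighbours CDKN2B and CDKN1C alone overlapped in their ranges. In controls the order differed in 1 place, with CCND1 ahead of CCND3, and there CDKN1A overlapped with CCND1 and CCND2 with CDKN2C.

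**Figure D3:**
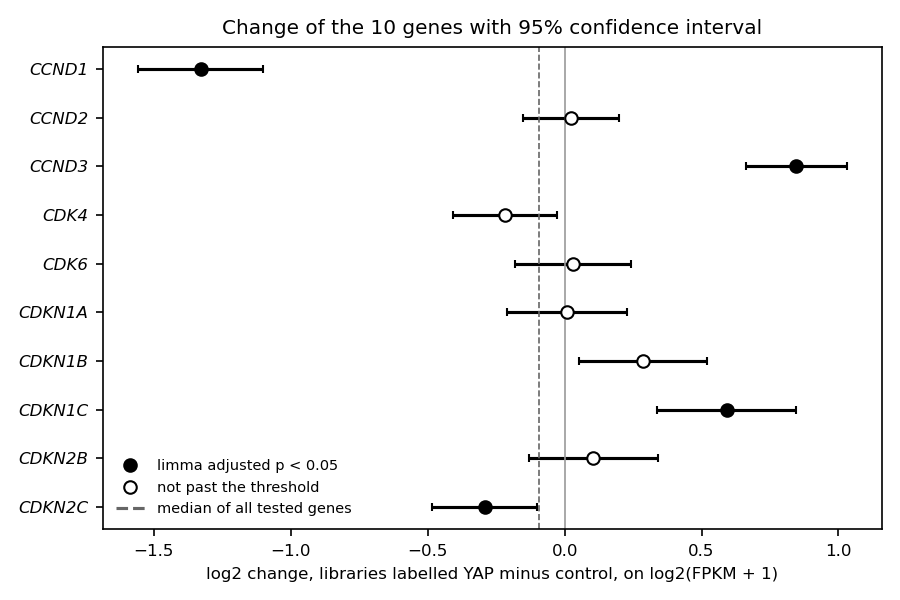
Log2 change of each gene, libraries labelled YAP minus control, on the log2(FPKM + 1) scale (horizontal axis), with 95% confidence intervals from limma; filled points passed an adjusted p of 0.05 and the dashed line is the median of all tested genes, -0.10. CCND1 at -1.33 and CCND3 at 0.85 stand farthest from that line.

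The libraries labelled YAP were more alike than the controls in all 10 genes. The same count was not made over all tested genes, so it is no result about these genes. Over all tested genes, log2(FPKM + 1) correlated at 0.9933 to 0.9973 between libraries labelled YAP and at 0.9926 to 0.9946 between controls. The coefficient of variation, the SD as a percentage of the mean, had a median of 3.70% over the 10 genes in the libraries labelled YAP and 12.5% in controls. For CCND3 it was 0.065% in the libraries labelled YAP, below the 1.15% that counting error alone gives at that depth, and 10.05% in controls. CDKN1B (3.57% against a counting error of 4.28%) and CDKN2B (5.11% against 5.64%) were also below it in the libraries labelled YAP. An SD of 3 values is itself imprecise. For CCND1 it was 2.29% in the libraries labelled YAP and 16.4% in controls. Control replicate 1 was the control farthest from the group's median FPKM in 8 of the 10 genes. Over all tested genes it held that place in 28.0%, a share taken on log2(FPKM + 1) and so not on the same scale. It was the highest control for CCND1, CCND3, CDK4, CDKN1A and CDKN2C and the lowest for CCND2, CDK6, CDKN1B, CDKN1C and CDKN2B. Without it CCND1 changed by -1.20, CCND3 by 0.93 and CDKN1C by 0.48, with limma adjusted p of at most 0.013.

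The genes around this machinery were counted in 5 lists from the same fit, to be read against the 12.9% of all tested genes called higher, the 23.0% called lower and the median log2 change of -0.10. Of 10 tested further G1 cyclins, kinases and inhibitors, 1 rose (CDKN2D) and 4 fell, or 50% called against 35.9% over all tested genes, with a median log2 change of -0.20. CCNE2, one of the E cyclins that take over from D cyclins by activating CDK2, had 3.31, 2.92 and 2.89 FPKM in the libraries labelled YAP, against 6.39, 4.80 and 6.42 FPKM in controls (log2 change -0.76, SE 0.11, limma adjusted p = 3.7e-04). CCNE1, the other E cyclin, averaged 2.77 ± 0.24 FPKM in the libraries labelled YAP and 4.05 ± 0.40 FPKM in controls (limma adjusted p = 0.0064). No value of either E cyclin overlapped between groups. CDK2 stood at 8.84 ± 0.74 FPKM in the libraries labelled YAP and 9.91 ± 1.09 FPKM in controls (limma adjusted p = 0.27).

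Of the 13 RB family and E2F genes, 1 rose and 4 fell, with a median log2 change of -0.11. The 38.5% called was near the 35.9% over all tested genes. E2F2, an activator E2F, had 1.11, 1.13 and 1.26 FPKM in the libraries labelled YAP, against 0.494, 0.297 and 0.290 FPKM in controls (log2 change 0.67, limma adjusted p = 2.8e-04). It passed the filter through the libraries labelled YAP alone, so that a difference was built into its being tested. E2F3, also an activator, averaged 4.45 ± 0.32 FPKM in the libraries labelled YAP and 6.25 ± 0.58 FPKM in controls (limma adjusted p = 0.0065). The repressor E2F8 averaged 2.56 ± 0.23 FPKM in the libraries labelled YAP and 3.83 ± 0.60 FPKM in controls (limma adjusted p = 0.0093). The split was 2 higher and 2 lower with median-of-ratios scaling, and without YAP replicate 1, when E2F2 was below the filter, 1 gene of this list passed, a lower one.

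Of 18 genes for the turnover of D cyclins and CIP/KIP inhibitors, 3 fell and 0 rose, at a median log2 change of -0.05. The 16.7% that fell was below the 23.0% over all tested genes. DTL, the substrate receptor of the CUL4 ligase that clears CDKN1A protein in S phase, averaged 3.70 ± 0.21 FPKM in the libraries labelled YAP and 5.31 ± 0.56 FPKM in controls (SD, n = 3 each; limma adjusted p = 0.0059). SKP1, a core subunit of the SCF ligases, averaged 60.4 ± 2.29 FPKM in the libraries labelled YAP and 73.9 ± 3.58 FPKM in controls (limma adjusted p = 0.012). COPS5, the catalytic subunit of the COP9 signalosome, averaged 27.3 ± 0.95 FPKM in the libraries labelled YAP and 32.9 ± 1.36 FPKM in controls (limma adjusted p = 0.019). DTL alone of the list passed with median-of-ratios scaling (adjusted p = 0.014). With limma-voom the list's split was 2 higher and 1 lower.

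Of 24 transcription factors known to act on these genes, 4 rose and 6 fell (median log2 change -0.11), and the 41.7% called was near the background of 35.9%. One of the 6, LEF1, averaged 0.79 FPKM in the libraries labelled YAP and 1.74 FPKM in controls and passed the filter through the controls alone, so it had to differ to be counted. TCF7, a Wnt effector, had 0.863, 1.09 and 1.14 FPKM in the libraries labelled YAP, against 3.14, 3.30 and 2.67 FPKM in controls (log2 change -0.99, SE 0.10, limma adjusted p = 2.2e-05). KLF4, an activator of CDKN1A in several cell types, averaged 32.6 ± 1.59 FPKM in the libraries labelled YAP and 19.4 ± 0.50 FPKM in controls (limma adjusted p = 3.3e-05). EZH2, the methyltransferase that silences INK4 loci, had 17.6, 18.2 and 17.1 FPKM in the libraries labelled YAP, against 28.9, 27.8 and 26.8 FPKM in controls (log2 change -0.63, SE 0.08, limma adjusted p = 9.0e-05). None of the 3 overlapped between groups. LEF1, also a Wnt effector, was lower too (limma adjusted p = 0.0019), whereas the remaining Wnt effectors of the list were not called lower. CTNNB1 averaged 175.6 FPKM in the libraries labelled YAP and 124.3 FPKM in controls (limma adjusted p = 0.0034). TCF7L1 averaged 7.19 FPKM in the libraries labelled YAP and 5.33 FPKM in controls (limma adjusted p = 0.0065), and TCF7L2 did not pass (limma adjusted p = 0.58). MYC averaged 25.0 ± 0.82 FPKM in the libraries labelled YAP and 28.3 ± 0.93 FPKM in controls (limma adjusted p = 0.095).

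Of 17 proliferation markers 8 fell and 0 rose, at a median log2 change of -0.26. The share that fell was 47.1%, against 23.0% over all tested genes. RRM2, a subunit of ribonucleotide reductase, fell to 71.3 ± 5.90 FPKM in the libraries labelled YAP, against 107.9 ± 13.1 FPKM in controls (limma adjusted p = 0.0010). TYMS, thymidylate synthase, fell to 93.0 ± 4.58 FPKM in the libraries labelled YAP, against 121.2 ± 7.46 FPKM in controls (limma adjusted p = 0.0034). MKI67, the nuclear antigen of cycling cells, had 18.9, 17.0 and 20.8 FPKM in the libraries labelled YAP, against 31.2, 22.3 and 28.9 FPKM in controls (limma adjusted p = 0.0074). The 8 became 6 with median-of-ratios scaling and 4 with limma-voom or without YAP replicate 1, all lower. The lower markers stood beside the lower CCND1, and their part in its change was not tested.

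**Figure D4:**
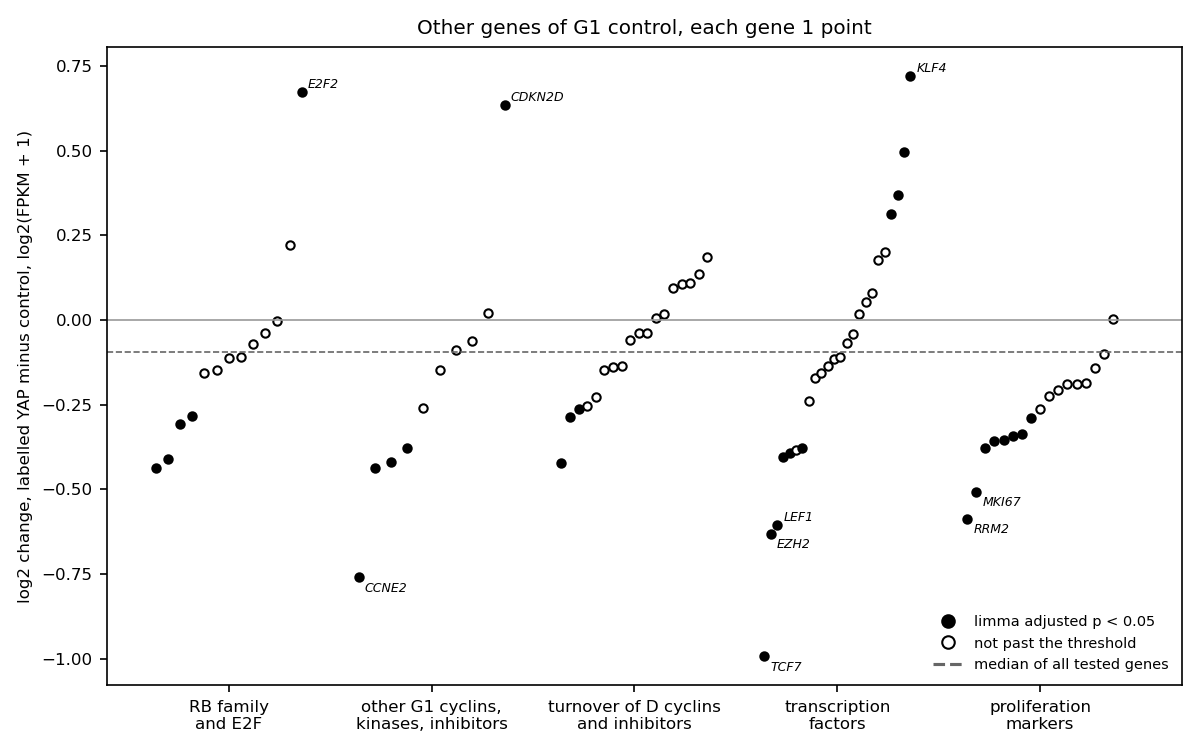
Log2 change (vertical axis, libraries labelled YAP minus control, log2(FPKM + 1) scale) of every tested gene in 5 lists of G1 control, 1 point a gene, ordered by value within a list; filled points passed an adjusted p of 0.05 in limma. Proliferation markers that passed all lie below 0, and transcription factors that passed lie on both sides.

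The genes whose pattern was most like that of CCND1 were sought among the other 10760 tested genes, by the mean absolute difference of log2(FPKM + 1), centred on each gene's own mean, over the 6 libraries. LTBP3, a binding protein of latent TGF-beta, came first at a mean difference of 0.020, with 11.8, 11.9 and 12.3 FPKM in the libraries labelled YAP, against 38.9, 27.9 and 28.4 FPKM in controls. DUSP5, a nuclear phosphatase of ERK, followed at 0.052, with 3.52 ± 0.34 FPKM in the libraries labelled YAP and 11.3 ± 2.08 FPKM in controls. TIMP3, a metalloproteinase inhibitor, came next at 0.057, with 61.3 ± 2.79 FPKM in the libraries labelled YAP and 146.9 ± 12.3 FPKM in controls. All 3 shared with CCND1 both the gap between groups and the high value of control replicate 1. The choice by likeness over the same 6 libraries made this so, and it is no separate result.

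**Figure D5:**
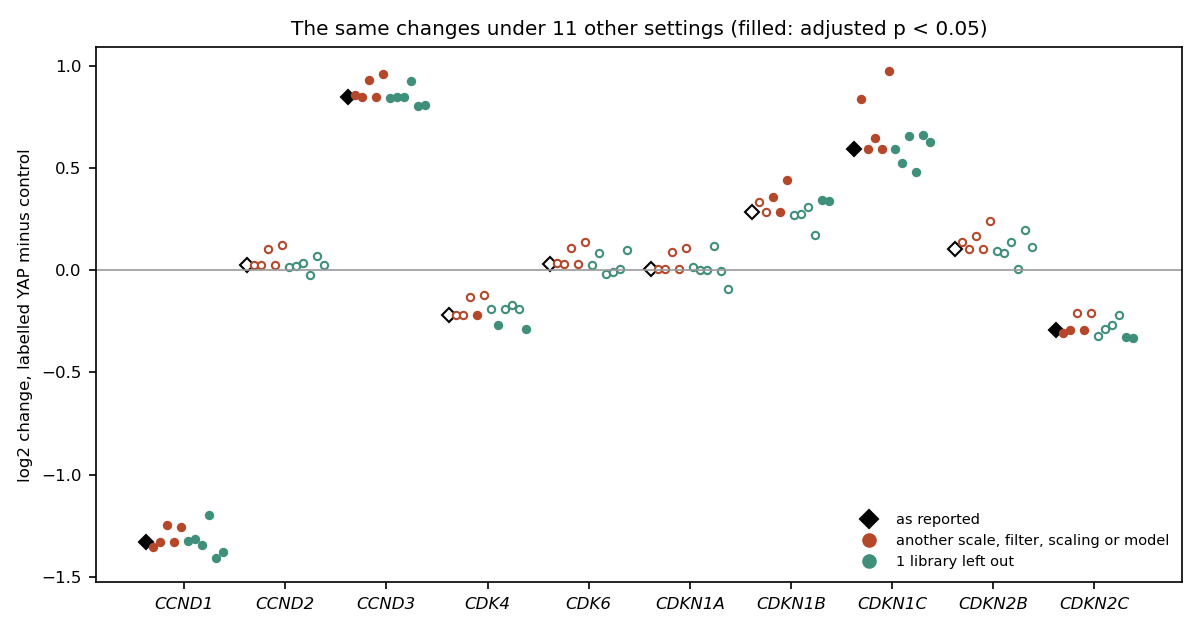
Log2 change of each gene (vertical axis, libraries labelled YAP minus control) as reported (diamonds) and under 11 other settings, of which 6 leave out a library; filled symbols passed an adjusted p of 0.05. CCND1, CCND3 and CDKN1C passed under all 11, CDKN2C and CDKN1B under 5 each, CDK4 under 3 and the rest under none.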

How the data were processed

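TRIzol extracts of total RNA went into VAHTS Universal V6 libraries, per the labels' protocols. Tools listed in the submitters' processing notes are fastp, HISAT2 and HTSeq. The sources used here give no versions, genome build, annotation or strand setting, and no coordinates are printed. The authors deposited FPKM values in 2 tables. A further 6 columns of per-sample values, headed TAZ and pcDNA, matched no sample title and were not used. Since pcDNA is also the name of a family of expression vectors, whether the controls are vector controls cannot be told from the labels.

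Groups and replicates followed the sample titles. Genes reaching 1 FPKM in 3 or more libraries were tested on log2(FPKM + 1) with limma 3.58.1 (R 4.3.3; lmFit, then eBayes with a variance trend), two-sided, with Benjamini-Hochberg adjustment over all 10761 genes and a threshold of 0.05. Whole reads were recovered from the FPKM steps (100% of values above 0 within 0.002 reads) and gave the depths. The members, lists and tests were chosen with earlier results of these data known. Genes named are the 10 members, YAP1, WWTR1, up to 3 called genes of smallest adjusted p per list and the 3 most like CCND1. CDK2, MYC, LEF1, CTNNB1, TCF7L1, TCF7L2 and the cell type markers with values were named after theirs were seen. The alternatives comprised a pseudocount of 0.1, no filter, median-of-ratios scaling, the replicate number as a block, limma-voom with trimmed-mean scaling on the recovered reads, and leaving out each library.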

Additional observations from a re-analysis of the deposited data

How the results depend on the processing

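CCND1, CCND3 and CDKN1C kept their direction and their call under all 11 alternatives. Their log2 changes ran from -1.41 to -1.20, from 0.80 to 0.96 and from 0.48 to 0.97. The number of the 10 genes called ran from 3 to 6. Small log2 changes turned sign when 1 library was left out, and the cause was not tested. CCND2 ran from -0.025 without control replicate 1 to 0.069, CDK6 from -0.018 without YAP replicate 3 (-0.0069 without control replicate 1) to 0.099, and CDKN1A from -0.092 without control replicate 3 (-0.0048 without control replicate 2) to 0.118. Leaving out each library gave 2290 (without YAP replicate 1) to 3515 calls over all genes, 1 to 4 in the RB family and E2F list, 1 to 3 in the turnover list and 4 to 10 among proliferation markers. Without the filter the RB family and E2F list had 3 calls. The turnover list had 1 call with median-of-ratios scaling, and proliferation markers had 4 with limma-voom. The share of lower calls over all genes was 64.0% as reported, 47.0% with median-of-ratios scaling and 43.4% with limma-voom.

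The replicate numbers share only a name in the labels. Deviations of same-numbered libraries from their group means correlated across genes at -0.018, 0.59 and 0.60 for numbers 1, 2 and 3. Crossed, YAP replicate 2 with control replicate 3 gave -0.62, and YAP replicate 3 with control replicate 2 gave -0.56. Deviations from a group mean cancel within the group, so the crossed values are tied to the same-number ones and are no separate result. Numbers 2 and 3 thus varied alike across the groups, while YAP replicate 1 was closest to control replicate 3 (0.14). The labels state no pairing, so the fit as reported had none, and the source of this likeness was not tested. With the replicate number as a block 5573 genes were called, 6 in the turnover list, 16 among transcription factors and 13 among proliferation markers, and CDK4 and CDKN1B also passed (adjusted p = 0.011 and 0.023). At 73 to 183 reads CDKN1C carried the largest counting error of the 10 genes, 7.54% per library labelled YAP and 10.3% per control.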
